A study of Mus musculus with 10 samples.

Results

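Galectin-system genes were followed across the sorted cell lineages of the mouse prostate: Lgals1, Lgals3, Lgals7, Lgals8 and Lgals9, which encode galectins, and Lgals3bp, which encodes a secreted glycoprotein that galectins bind. They are 6 of 24509 genes in the table, were named as a list with their levels in these libraries known, and all 6 passed the filter on low values that 12410 genes passed. Their levels and the differences between groups are therefore given as a description, with no test. RNA came from C57BL/6 mice aged 8 to 12 weeks, and no treatment, transgene or deletion is named for any group. Basal cells were gated as Lin-/CD24low/CD49fhigh (2 libraries), and stromal cells as Lin-/CD24-/CD49f- (2 libraries). Luminal cells, gated as Lin-/CD24high/CD49flow, were divided into Sca-1- (3 libraries) and Sca-1+ (3 libraries). Values are FPKM, a level corrected for transcript length and for library size, summed over the transcripts of a gene. The labels name no animals or pools, so each spread and each p-value covers these libraries only, and a culture protocol is attached to every library without a statement of whether the sorted cells were cultured.

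Galectins are small proteins that bind galactose-containing sugar chains through a conserved carbohydrate recognition domain. They are made without a signal peptide and leave the cell by an unconventional route, so the same protein can act in the nucleus and cytoplasm or cross-link glycoproteins at the cell surface and in the matrix. Prototype galectins such as galectin-1 and galectin-7 carry a single domain, galectin-3 joins a single domain to a long collagen-like tail, and the tandem-repeat galectin-8 and galectin-9 hold a pair of different domains on a linker. Cell types can differ in which members of the family they make, and in how much.

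Depth was 20.17 to 27.04 M (mega) mapped fragments a library, estimated from the deposited intervals, and 9766 to 11271 genes stood at 1 FPKM or more. The basal keratin followed the gates, the Sca-1 gene did so between the luminal groups, and Cd24a did so with an exception. Krt5, a basal keratin, stood at 382 and 535 FPKM in basal libraries and at 20.0 or less elsewhere. Ly6a, which encodes Sca-1, stood at 677 to 2301 FPKM in the Sca-1+ luminal against 19.9 to 82.8 FPKM in the Sca-1- luminal libraries. It was also high in stromal (1290 and 1930 FPKM) and basal libraries (421 and 473 FPKM), so it does not set Sca-1+ luminal apart from stromal libraries. Cd24a, which encodes CD24, stood at 412 to 1091 FPKM in 5 of the 6 luminal libraries, but at 197 FPKM in Sca-1+ luminal replicate 1, under the basal values of 226 and 199 FPKM. Krt8, a luminal keratin, was also lower there (448 FPKM) than in basal libraries (607 and 1234 FPKM), but Sca-1- luminal replicate 3 was lower still (256 FPKM). The Sca-1+ luminal libraries were not alike: over all tested genes, the Pearson correlation with stromal replicates 1 and 2 was 0.917 and 0.915 for replicate 1 but 0.704 and 0.736 for replicate 3. The summed level of 10 fibroblast markers, none of them at 0 in any library, was 5304, 2675 and 378 FPKM among the Sca-1+ luminal replicates 1, 2 and 3. It was 84.5 to 152 FPKM in the Sca-1- luminal, 521 to 706 FPKM in basal and 5872 to 7564 FPKM in stromal libraries. In basal libraries most of this sum was Dcn, at 655 and 459 FPKM, against 233 FPKM in Sca-1+ luminal replicate 3. Each of the other markers was higher in that replicate than in either basal library, as for Col1a1 (22.4 against 7.16 and 8.77 FPKM). Of 11 leukocyte markers the sum was 13.2 to 58.4 FPKM over all libraries, with at most 2 of them at 0 in a library, and Ptprc, which encodes the pan-leukocyte antigen CD45, did not exceed 0.338 FPKM.

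The galectins did not all stand highest in the same lineage. Lgals1 and Lgals9 were highest in stromal, Lgals7 in basal and Lgals3 in Sca-1+ luminal libraries, while Sca-1- luminal libraries had the lowest summed galectin level. The sum over the 5 galectins ran from 60.6 FPKM in the Sca-1- luminal replicate 3 to 2077 FPKM in the Sca-1+ luminal replicate 3. Lgals3 made up 56.3%, 70.9% and 96.8% of that sum in Sca-1+ luminal replicates 1, 2 and 3. In basal replicates 1 and 2 Lgals7 made up 47.5% and 58.4%, beside 48.0% and 35.7% for Lgals3, and Lgals1 61.3% and 54.8% in the stromal libraries. Sca-1- luminal replicates 1 and 2 were mostly Lgals3, at 74.9% and 82.3%, but in replicate 3 Lgals1 at 28.2%, Lgals9 at 24.5%, Lgals3 at 22.5% and Lgals8 at 21.7% were nearly even.

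**Figure D1:**
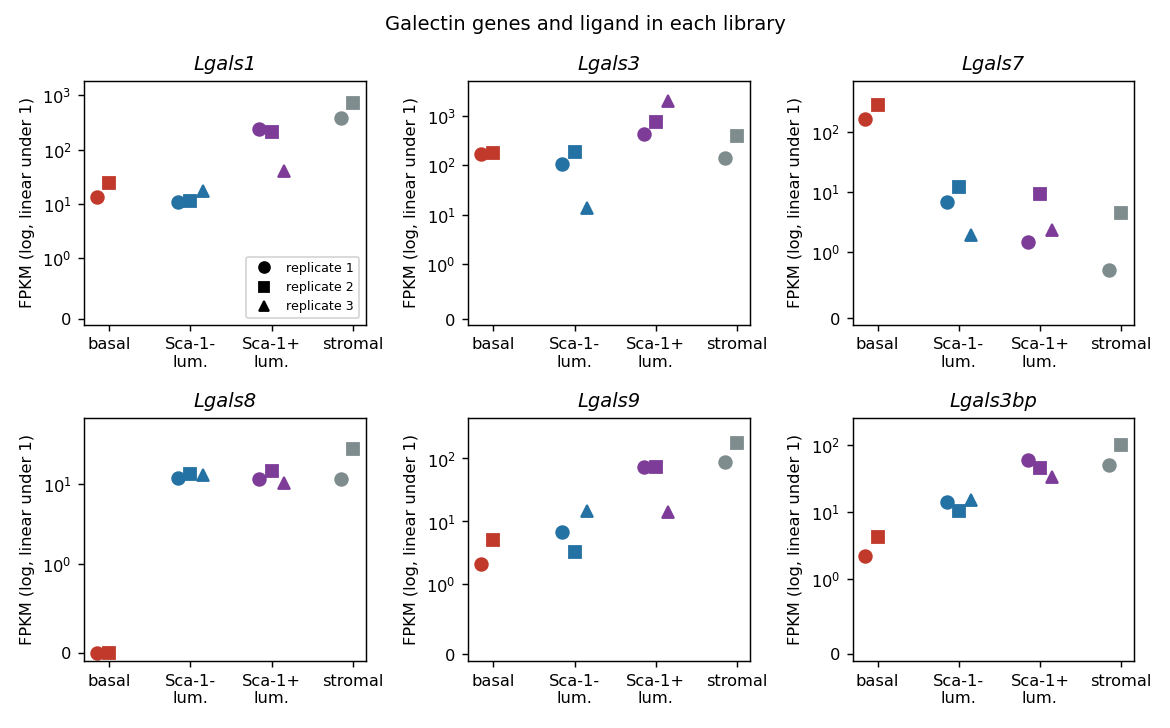
Level of each of the 6 genes in every library (FPKM, logarithmic axis with a linear stretch near 0), grouped by sorted population, with each point a library. Lgals7 stands apart in the 2 basal libraries (165 and 287 FPKM), Lgals8 is listed at 0 there, and Sca-1+ luminal replicate 3 has the highest Lgals3 value (2011 FPKM).

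**Figure D2:**
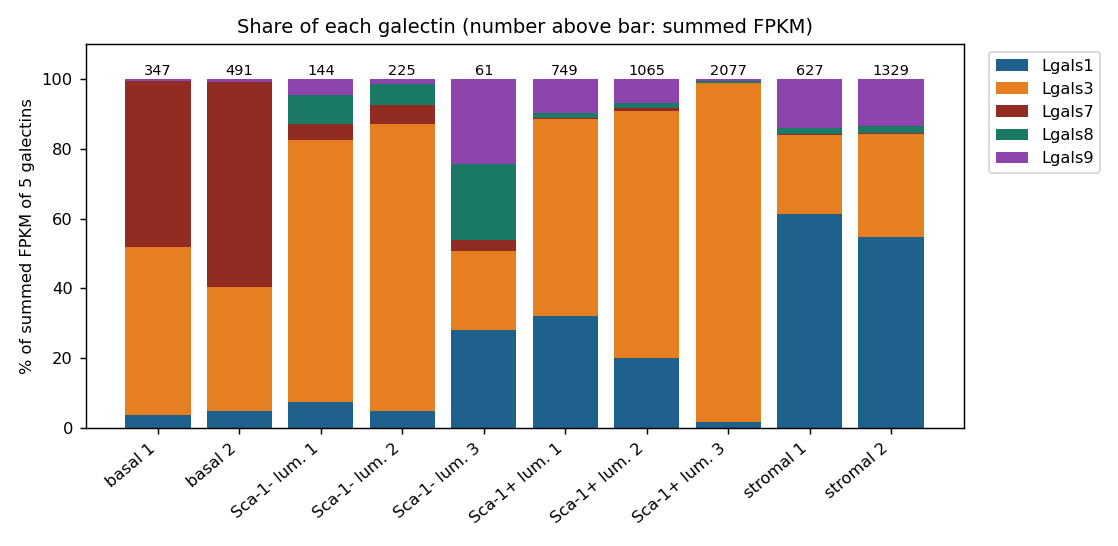
Share of the summed FPKM of the 5 galectins held by each gene (percent, vertical axis) in each library, as stacked bars. Lgals1 takes more than any other galectin in both stromal libraries, and Lgals7 does so in basal replicate 2 (58.4%), while Lgals3 takes 96.8% in Sca-1+ luminal replicate 3.

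Among the prototype galectins, Lgals1 encodes galectin-1, a secreted dimer known for its actions on T cells, vessels and the matrix. It lies on chr15:78926725-78930465 (mm10, plus strand) as a single transcript of 800 nt in 4 exons. Processed pseudogenes of Lgals1 are annotated elsewhere, and how reads shared with them were counted is not given in the sources used here. Lgals1 stood at 385 and 729 FPKM in stromal libraries and at 241, 213 and 39.5 FPKM among the Sca-1+ luminal replicates 1, 2 and 3. In Sca-1- luminal libraries it stood at 10.8, 11.1 and 17.1 FPKM, and in basal libraries at 13.3 and 23.8 FPKM. The order was stromal (557 ± 243 FPKM, SD, n = 2), Sca-1+ luminal (165 ± 109, n = 3), basal (18.5 ± 7.41, n = 2) and Sca-1- luminal (13.0 ± 3.57, n = 3). Only the last pair of neighbours overlapped. On the log2(FPKM + 1) scale Lgals1 was 4.05 (SE 0.600) higher in stromal libraries than in the mean of the 3 epithelial groups, and 3.22 (SE 0.618) higher in Sca-1+ than in the Sca-1- luminal libraries. With Sca-1+ luminal replicate 3 as the only library of its group, the latter difference was 1.56. Fewer cells of a type and less RNA per cell cannot be told apart in these bulk libraries.

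The other prototype gene, Lgals7, was the basal member. Galectin-7 is known from stratified epithelia such as skin, where it is tied to differentiation and to p53-dependent cell death. The gene lies on chr7:28864386-28866284 (plus strand), with a transcript of 597 nt in 4 exons. It stood at 165 and 287 FPKM in basal libraries, at 6.68, 11.9 and 1.90 FPKM among the Sca-1- luminal libraries. Sca-1+ luminal libraries held 1.45, 9.10 and 2.28 FPKM, and stromal libraries 0.728 and 4.41 FPKM. Both basal values lay above all others, whereas the 3 other groups overlapped. The basal mean (226 ± 86.1 FPKM, SD, n = 2) was 33.1 times that of Sca-1- luminal libraries (6.82 ± 4.99, n = 3), a log2 difference of 5.05 (SE 0.767). The lowest value, in stromal replicate 1, amounted to about 7 fragments, and the highest, in basal replicate 2, to about 2534. The basal marker list, of 7 genes, moved with it: the sum was 4951 to 6849 FPKM in basal libraries against 15.9 to 520 FPKM elsewhere, with 1 marker at 0 in stromal replicate 1 and none at 0 in the other libraries. The part of these markers in the Lgals7 levels outside the basal gate was not tested.

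Lgals3, the chimera-type member, encodes galectin-3, which is abundant in epithelia and macrophages and also acts inside the cell. It lies on chr14:47373860-47386167 (plus strand). Lgals3 stood at 422, 755 and 2011 FPKM among the Sca-1+ luminal replicates 1, 2 and 3. It stood at 108, 185 and 13.6 FPKM among the Sca-1- luminal libraries. Basal libraries held 167 and 175 FPKM, and stromal libraries 142 and 391 FPKM. All 3 Sca-1+ luminal values lay above every other library, although the lowest of them was close to stromal replicate 2. The Sca-1+ luminal mean was 1063 ± 838 FPKM (SD, n = 3), followed by stromal (267 ± 176, n = 2), basal (171 ± 5.87, n = 2) and Sca-1- luminal libraries (102 ± 85.7, n = 3), of which the last 3 groups overlapped their neighbours. The log2 difference between Sca-1+ and Sca-1- luminal libraries was 3.70 (SE 0.90). It was 4.92 with replicate 3 as the only Sca-1+ library and 2.60 without Sca-1- luminal replicate 3, the library at 13.6 FPKM. Thus replicate 3, lowest of its group in fibroblast markers, was lowest in Lgals1 and highest in Lgals3. It was also highest in the sum of 4 proximal luminal markers, Ly6a among them, at 1388.5, 3088.9 and 6934.8 FPKM in replicates 1, 2 and 3. That sum was 1303 and 1986 FPKM in stromal libraries, and its part in the Lgals3 levels was not tested. Among macrophage genes, Adgre1 was under 1 FPKM in all libraries. Over Sca-1+ luminal replicates 1, 2 and 3, Cd14 stood at 22.3, 29.2 and 36.3 FPKM, in the order of Lgals3. Lyz2 ran the other way, at 8.06, 5.46 and 4.56 FPKM, and Cd68 was highest in replicate 2, at 7.79, 18.3 and 6.00 FPKM. Among the Sca-1- luminal replicates 1, 2 and 3, Cd14 stood at 20.3, 15.4 and 4.30 FPKM, not in the order of Lgals3. Cd68 stood there at 7.43, 12.2 and 0.982 FPKM, in the order of Lgals3, and Lyz2 at 14.2, 2.43 and 2.54 FPKM, not in that order. The summed leukocyte list was 46.2 to 58.4 FPKM in Sca-1+ luminal and 13.2 to 53.8 FPKM in Sca-1- luminal libraries, and its part in the Lgals3 difference was not tested.

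Of the tandem-repeat genes, Lgals8 encodes a galectin known for sensing damaged vesicles and recruiting autophagy receptors. It lies on chr13:12439402-12464942 (minus strand), where the only transcript reaching past 12461738 was listed at 0 in every library. It was the flattest of the 6 genes outside the basal gate, at 11.5, 14.5 and 10.3 FPKM among the Sca-1+ luminal libraries, 11.9, 13.6 and 13.2 FPKM among the Sca-1- luminal libraries, and 11.8 and 27.3 FPKM in stromal libraries, which overlapped. Both basal libraries list all 6 of its transcripts at 0, with a coverage of 0. These entries carried the status OK, with upper FPKM bounds of 0.0301 to 0.0383. An exact 0 in these tables can be a failed estimate or an absent transcript, and these cannot be told apart here. A listed 0 in some library and 5 FPKM elsewhere was found for 481 genes, which can include genes absent from a lineage. Among the 481 was Rpl31, 1 of 71 ribosomal protein genes. No fold is given for the basal libraries because the listed 0 may be a failed estimate.

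Lgals9 encodes galectin-9, an interferon-inducible galectin that binds immune receptors. The gene lies on chr11:78962979-78984924 (minus strand). It stood at 87.7 and 178 FPKM in stromal libraries and at 72.9, 73.3 and 14.1 FPKM among the Sca-1+ luminal replicates 1, 2 and 3. In Sca-1- luminal libraries it stood at 6.79, 3.26 and 14.8 FPKM, and in basal libraries at 2.12 and 5.04 FPKM. Stromal libraries (133 ± 63.5 FPKM, SD, n = 2) lay above all epithelial ones, while Sca-1+ luminal replicate 3 fell within the Sca-1- luminal range. On the log2 scale the Lgals9 difference was 3.45 (SE 0.659) for stromal libraries against the epithelial mean and 2.43 (SE 0.678) for Sca-1+ against Sca-1- luminal. With replicate 3 as the only Sca-1+ library the latter was 0.90.

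Sequence is shown for Lgals9, because its transcripts differ by a coding exon and its promoter held the only match to the motifs searched among the members. The deposited table holds a transcript of 1493 nt in 10 exons and another of 1586 nt in 11, and they differ by an exon of 93 nt, the fifth of 11, at chr11:78969714-78969806. It codes for 31 residues throughout, in the linker region between the domains. It is printed below in capitals, with 12 nt of the neighbouring exons in lower case, 5′ to 3′ on the coding strand (GENCODE M21 transcript). Next to it is the promoter stretch at chr11:78984947-78985174 (RefSeq assembly GRCm38.p6, the same as mm10), from base -250 to -23 relative to the transcript start. Capitals there mark a match to the interferon-stimulated response element.

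Lgals9 exon: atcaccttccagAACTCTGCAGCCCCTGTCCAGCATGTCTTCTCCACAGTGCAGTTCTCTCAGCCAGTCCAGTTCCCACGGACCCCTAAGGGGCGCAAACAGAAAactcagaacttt

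Lgals9 promoter: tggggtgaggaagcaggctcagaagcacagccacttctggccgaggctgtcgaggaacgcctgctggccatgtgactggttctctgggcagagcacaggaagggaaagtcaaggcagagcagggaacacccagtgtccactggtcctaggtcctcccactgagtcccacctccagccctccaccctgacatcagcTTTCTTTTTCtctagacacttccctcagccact

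The interferon element was searched as a pair of GAAA blocks spaced by any 2 bases, on both strands of the 250 bases before the start, along with the AP-1 motif TGANTCA, the interferon-gamma activated site TTCNNNGAA and the p53 half-site by its name. Promoter sequence was matched for Lgals3, Lgals7, Lgals8, Lgals9 and Lgals3bp, not for Lgals1. A match to any of these was found only in Lgals9, at -55 to -46 on the minus strand. Matches occur in 2.98% of 32851 RefSeq promoters for the interferon element and in 6.75%, 7.02% and 7.13% for the other 3 motifs in that order. A match describes letters in this window and shows no binding.

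Lgals3bp, the ligand, encodes a scavenger-receptor-like glycoprotein bound by galectin-1 and galectin-3. It lies on chr11:118392752-118401931 (minus strand) with a transcript of 2168 nt in 6 exons. It stood at 49.4 and 100 FPKM in stromal libraries, at 59.8, 45.0 and 33.3 FPKM among the Sca-1+ luminal libraries, at 14.0, 10.1 and 14.9 FPKM among the Sca-1- luminal libraries. Basal libraries held 2.18 and 4.29 FPKM. Stromal (74.9 ± 36.0 FPKM, SD, n = 2) and Sca-1+ luminal libraries (46.0 ± 13.3, n = 3) overlapped, while Sca-1- luminal (13.0 ± 2.54, n = 3) and basal libraries (3.23 ± 1.49, n = 2) stood apart from these and from each other. On the log2 scale Sca-1+ luminal libraries were 1.72 (SE 0.335) above Sca-1- luminal, basal libraries were 1.76 below them, and stromal libraries were 2.38 (SE 0.326) above the epithelial mean. With replicate 3 as the only Sca-1+ library the Sca-1+ difference was 1.31.

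Counting genes whose libraries did not overlap between groups, 3 of the 6 (Lgals1, Lgals3 and Lgals3bp) lay higher in Sca-1+ than in the Sca-1- luminal libraries and 0 lower, where 29.3% of all tested genes lay higher without overlap and 47.8% did not overlap in either direction. Against Sca-1- luminal, basal libraries were higher for 1 gene, Lgals7, and lower for 2, Lgals8 and Lgals3bp, where 33.3% of tested genes lay higher without overlap, 36.5% lower, and 69.8% in either direction. The count for Lgals8 rests on the listed zeros, which may be failed estimates. Stromal libraries lay above all epithelial ones for Lgals1 and Lgals9, where 9.15% of tested genes lay higher without overlap and 20.6% did not overlap in either direction. The members were chosen with these levels known, so nothing is read from the counts. Over the other pseudocount, filters and scalings the Sca-1+ against Sca-1- difference ran from 3.01 to 3.31 for Lgals1, 3.48 to 3.73 for Lgals3, 2.24 to 2.59 for Lgals9 and 1.52 to 1.79 for Lgals3bp on the log2 scale.

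Within the Sca-1+ luminal group collagen, like Lgals1, Lgals9 and Lgals3bp, was lowest in replicate 3. Col1a1, a fibrillar collagen chain made by fibroblasts, stood at 360, 190 and 22.4 FPKM among the Sca-1+ luminal replicates 1, 2 and 3, at 1.67 to 5.68 FPKM in the Sca-1- luminal, at 7.16 and 8.77 FPKM in basal, and at 317 and 314 FPKM in stromal libraries. Among the members, Lgals1 and Lgals9 had a Pearson correlation of 0.959, and Lgals9 and Lgals3bp of 0.932, over the 10 libraries on the log2(FPKM + 1) scale. The part of the fibroblast markers in the levels of Lgals1, Lgals9 and Lgals3bp was not tested. Correlations here describe 10 libraries that share 4 groups.

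**Figure D3:**
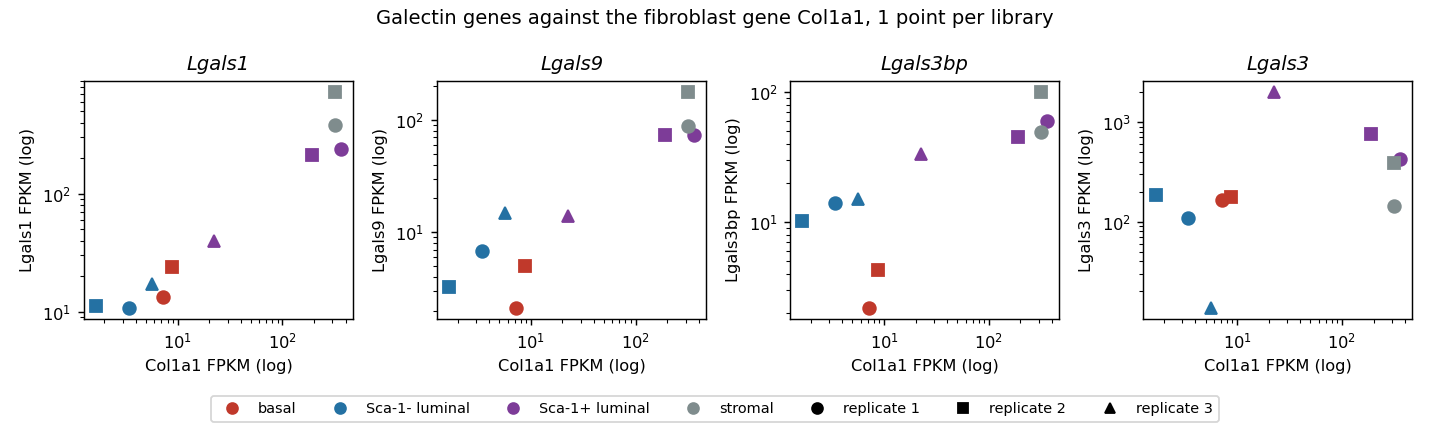
Level of Lgals1, Lgals9, Lgals3bp and Lgals3, a panel each (FPKM, vertical axis), against Col1a1 level (FPKM, horizontal axis), 1 point a library, coloured by group and shaped by replicate, on logarithmic axes. Sca-1+ luminal replicate 3 has the lowest Col1a1 of its group (22.4 FPKM), the lowest Lgals1 (39.5 FPKM) and the highest Lgals3 (2011 FPKM).

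The tested genes whose levels were most like each member were found by Pearson correlation over the 10 libraries. For Lgals1 these were Isl1 (0.997), Tmem100 and Wfdc1 (0.995 each). For Lgals7 they were Tgm1 (0.988), which encodes the transglutaminase of the cornified envelope, Krt5 (0.984) and Krt75 (0.979), both keratins. Tgm1 stood at 26.8 and 46.7 FPKM in basal libraries and at 4.53 FPKM or less elsewhere. For Lgals3 they were Wsb2 (0.965), Stxbp3-ps (0.962) and Anxa1 (0.955), which encodes annexin A1, and for Lgals8 Cyb5a (0.981), Hexa (0.976) and Klf2 (0.974). The Lgals8 correlations rest largely on its listed zeros in basal libraries, which may be failed estimates. Anxa1 stood at 561, 1229 and 1628 FPKM among the Sca-1+ luminal replicates 1, 2 and 3, the same order as Lgals3. For Lgals9 they were Crip1 and Parp12 (0.988 each) and Olfml3 (0.987), and for Lgals3bp Cd81 (0.973), Oas1a (0.972) and Psmb8 (0.970).

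The split of a gene between its transcripts was not used in choosing the members, and it was compared over the 4 groups by an exact permutation test. The 1586 nt transcript of Lgals9, with the extra exon, made up 9.78%, 24.5% and 13.5% of the gene's FPKM in the Sca-1- luminal replicates 1, 2 and 3 and 10.4% in Sca-1+ luminal replicate 3. It was listed at 0 in the other 6 libraries, and its highest level was 2.0 FPKM. The difference between groups was not called (exact permutation p = 0.0667, differences in either direction counted, adjusted p = 0.2 over 3 genes). Lgals3 has 2 transcripts with values and the same coding exons, of 1379 and 1406 nt, and the longer made up 44.4% to 56.9% of the FPKM in 9 libraries, and 100% in Sca-1- luminal replicate 3 (exact permutation p = 0.766, adjusted p = 0.766). For Lgals8 the transcript of 2807 nt made up 32.7% to 100% over the 8 libraries with a value (exact permutation p = 0.304, adjusted p = 0.455). Cufflinks divides fragments between transcripts that differ by few bases, so single shares are uncertain.

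**Figure D4:**
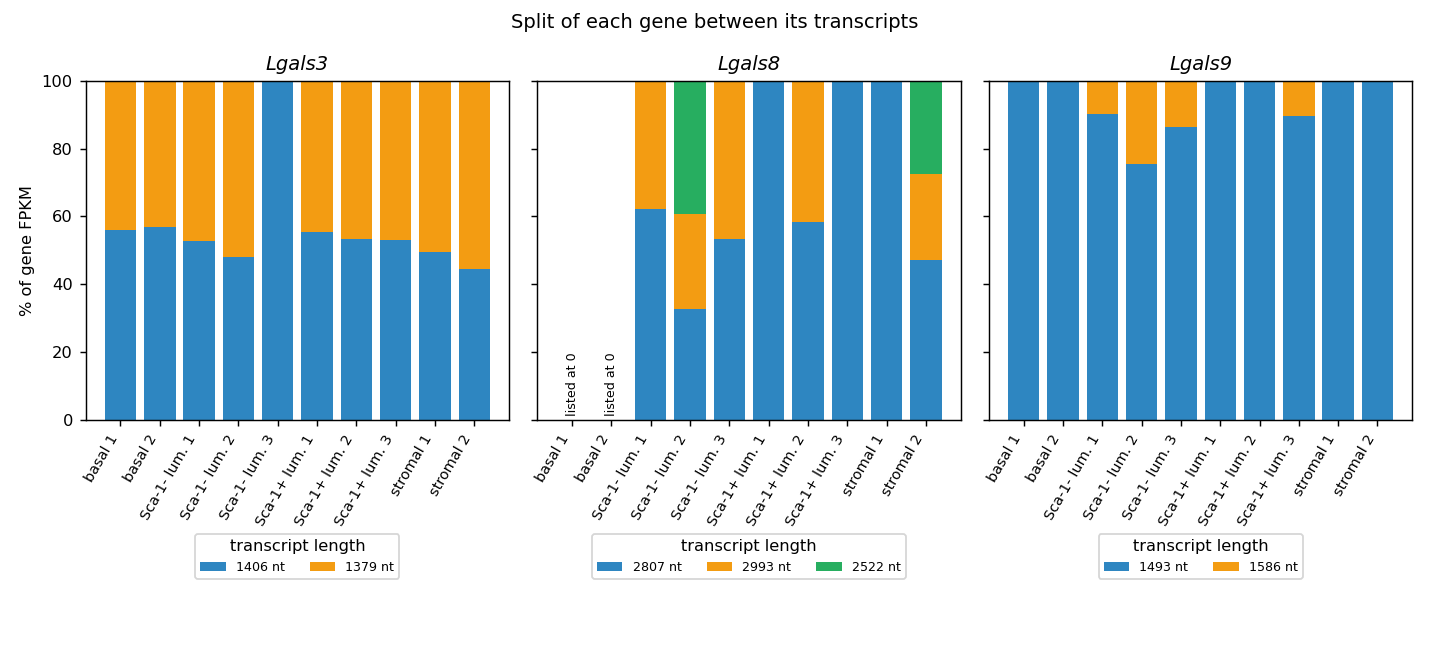
Share of each gene's FPKM held by its transcripts (percent, vertical axis) in each library, for Lgals3, Lgals8 and Lgals9, as stacked bars. The 1586 nt Lgals9 transcript appears in the 3 Sca-1- luminal libraries and in Sca-1+ luminal replicate 3, and Lgals8 is listed at 0 in basal libraries.

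The rest of the family was sparse. Of 6 further galectin and galectin-related genes, 5 were in the table and 2, Lgals4 and Lgalsl, passed the filter. By limma with Benjamini-Hochberg adjustment over all 12410 tested genes, Lgalsl, which encodes a galectin-related protein that does not bind the usual sugars, rose by 1.14 on the log2 scale (SE 0.301, adjusted p = 0.0122) in basal against Sca-1- luminal libraries, where 46.1% of all tested genes were called. The call was lost without either basal library, which leaves a single one whose spread is taken from the other groups. Its values were 6.36 and 6.21 FPKM in basal and 2.13, 1.93 and 2.95 FPKM among the Sca-1- luminal libraries, with no overlap. In the other 2 comparisons 0 of the 2 genes were called by limma, and 0 had an unadjusted p under 0.05. The median log2 difference in basal libraries was 0.79 for the 2 genes and -0.05 over all genes tested.

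Several enzymes that build, bisect or cap the kinds of sugar chain that galectins can bind were higher in Sca-1+ than in the Sca-1- luminal libraries. Calls on these enzymes do not measure the amount of galectin ligand. Of 15 tested (16 listed), 7 rose and 0 fell in Sca-1+ against Sca-1- luminal libraries, where limma called 35% of all tested genes, 21.8% higher and 13.2% lower. The median log2 difference was 0.97, against 0.19 over all tested genes. Mgat4a, an N-glycan branching enzyme, stood at 10.4, 17.4 and 47.9 FPKM among the Sca-1+ and at 1.93, 2.10 and 1.27 FPKM among the Sca-1- luminal libraries, a log2 difference of 2.99 (limma adjusted p = 0.00171). Mgat3, which adds the bisecting residue, and Gcnt1, which makes branched O-glycan cores, passed the filter on low values only through the Sca-1+ luminal libraries, so their calls are conditioned on being high there. Their log2 differences were 1.51 and 2.38, with limma adjusted p = 0.0108 and 0.0255 in the fit without a filter. St6gal1 passed only through the stromal libraries, and leaving out these 3 genes 5 of 12 enzymes rose. St3gal1, a sialyltransferase that caps O-glycans, rose by 2.53 (limma adjusted p = 0.0118), at 16.7, 9.71 and 1.33 FPKM against 0.194 to 0.384 FPKM. Its order over the Sca-1+ luminal libraries was that of the fibroblast markers, and those of Mgat4a and Gcnt1 ran the other way. With replicate 3 as the only Sca-1+ library, whose spread is then taken from the other groups, calls over all genes went from 4344 to 1986. In that fit 4 enzymes rose, Mgat3 was not tested, and the 4 included Mgat4a (log2 difference 4.16) and Gcnt1 (3.81), and St3gal1 was no longer called (limma adjusted p = 0.0861). Scaling touched the background of this comparison: 62.2% of all called genes were higher as deposited, 46.4% after median-of-ratios scaling and 40.4% after quantile normalization, which moved the median of all genes by -0.18 and -0.28 on the log2 scale. Of the enzymes, 5 rose and 1 fell after either scaling.

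In basal against Sca-1- luminal libraries 2 enzymes rose and 1 fell, where 46.1% of all tested genes were called (20.2% higher, 25.9% lower), and the median was 0.10 against -0.05 over all genes tested. St3gal4, a sialyltransferase, stood at 28.2 and 46.5 FPKM in basal and at 1.68, 2.06 and 0.401 FPKM among the Sca-1- luminal libraries (log2 difference 4.04, limma adjusted p = 0.000227). St3gal1 rose by 3.04 (limma adjusted p = 0.00495), and C1galt1c1, the chaperone of the O-glycan core enzyme, fell by 1.62 on the log2 scale (limma adjusted p = 0.00196). All basal values of both sialyltransferases lay above the Sca-1- luminal ones. In stromal against epithelial libraries 1 rose, St3gal1 (2.35, limma adjusted p = 0.0133), and 1 fell, Mgat4a (-1.44, limma adjusted p = 0.0306), where 34.2% of all tested genes were called (15.7% higher, 18.4% lower) and the list median was 0.07 against -0.12. Leaving out stromal replicate 1 or 2 left 0 of these calls, but calls over all genes also went from 4241 to 1409 and 1824, since the remaining library takes its spread from the other groups.

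Among genes listed as galectin binding partners, more were called higher than lower in each of the 3 comparisons. In basal libraries the share called was near that of all tested genes. Of 14 tested (19 listed), 8 rose and 1 fell in Sca-1+ against Sca-1- luminal libraries, beside the 21.8% of all tested genes called higher and 13.2% called lower, with a median log2 difference of 1.38 against 0.19 over all genes tested. Cd44, the hyaluronan receptor, stood at 85.5, 75.0 and 76.2 FPKM against 9.34, 16.8 and 2.79 FPKM (log2 difference 3.17, limma adjusted p = 0.00144). It was even over the 3 Sca-1+ luminal libraries, unlike Nrp1, a semaphorin co-receptor, at 27.7, 14.5 and 3.71 FPKM (log2 difference 2.81, limma adjusted p = 0.0050). Itgb1, the beta-1 integrin chain, rose by 1.74 (limma adjusted p = 0.00249). The mucin gene Muc1, at 1.07 to 1.53 against 0.106 to 0.176 FPKM, passed the filter only through the Sca-1+ luminal libraries (log2 difference 1.01, limma adjusted p = 0.0015 without a filter), and without it 7 of 13 partners rose. The part of the fibroblast markers in these calls was not tested. With replicate 3 as the only Sca-1+ library, the spread again from the other groups, 3 rose (Cd44, Itgb1 and Nrp1) and 1 fell (P4hb, a protein disulfide isomerase), and Muc1 was not tested.

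In basal against Sca-1- luminal libraries 5 partners rose and 1 fell (median 0.68 against -0.05), a share called near the 46.1% of all tested genes. Itgb1 stood at 459 and 458 FPKM in basal and at 64.9, 59.6 and 41.9 FPKM among the Sca-1- luminal libraries (log2 difference 3.05, limma adjusted p = 9.63e-05). Egfr, the epidermal growth factor receptor, rose by 3.45 (limma adjusted p = 0.000156), Pdpn, which encodes podoplanin, by 5.27 (limma adjusted p = 0.00112), and P4hb fell by 2.01 (limma adjusted p = 0.000811). In stromal against epithelial libraries 7 rose and 0 fell (median 0.56 against -0.12), where 15.7% of all tested genes were called higher and 18.4% lower. Nrp1 stood at 36.5 and 37.4 FPKM in stromal libraries (log2 difference 3.35, limma adjusted p = 0.0020), Cspg4, a pericyte proteoglycan, at 18.6 and 21.7 FPKM (2.77, limma adjusted p = 0.00558), and Pdpn at 419 and 698 FPKM (3.47, limma adjusted p = 0.00816). Leaving out either stromal library left 1 partner called, with the same general loss of calls. The other 5 partners, Ptprc, Spn, Cd7, Calcoco2 and Havcr2, did not pass the filter.

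**Figure D5:**
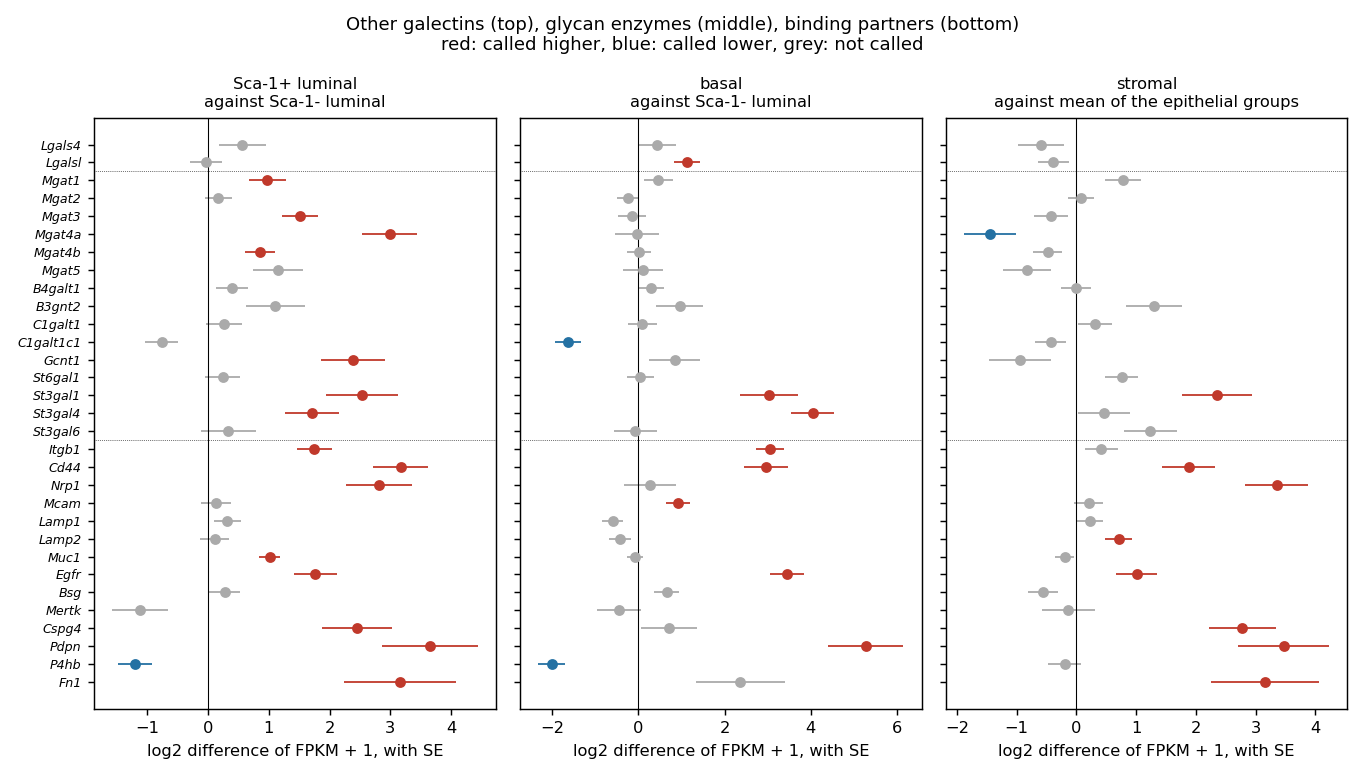
Log2 difference (log2(FPKM + 1) scale) of each tested gene of the 3 lists in the 3 comparisons, as points with SE bars, red for called higher, blue for called lower and grey for not called. Of the 15 enzymes 7 and of the 14 partners 8 were called higher in Sca-1+ than in the Sca-1- luminal libraries, beside 21.8% of all tested genes. Leaving out genes that passed the filter only through 1 group, 5 of 12 enzymes and 7 of 13 partners were called higher.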

How the data were processed

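RNA was turned into cDNA with random and poly(dT) priming (NuGEN Ovation) and sequenced on an Illumina HiSeq, per the labels' protocols, which state no strand. Per the submitters' processing notes, reads were handled with bcl2fastq 1.8.3, TopHat and Cufflinks on mm10. The authors deposited, per the file headers, a Cufflinks table of 63241 transcripts a library with FPKM, its lower and upper bounds and coverage; the deposited coverage signal was read for zeros only. Groups come from the gate in each label, and replicates are numbered in accession order.

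Transcripts were named by mm10 coordinates from GENCODE M21 and RefSeq (52871, 83.6%), those under 300 nt were left out, and FPKM was summed per gene. Depth was estimated from the deposited FPKM bounds, taken as ± 2 SD. Genes reaching 1 FPKM in 2 or more libraries were fitted with limma 3.58.1 (R 4.3.3) on log2(FPKM + 1), with a mean for each of 4 groups over all 10 libraries, and the threshold was 0.05 after Benjamini-Hochberg adjustment over these genes. The pseudocount understates changes of low genes. Scripts were tested on simulated data. Transcript shares were compared by exact permutation in Python 3.11.15. Named list genes are up to 4 a list and comparison, in order of adjusted p; others named were chosen after their values were seen. Members and lists were chosen with earlier results of these data known. Alternatives were the pseudocount, the filter, scaling, short transcripts and libraries left out.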

Additional observations from a re-analysis of the deposited data

How the results depend on the processing

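Of the list counts and transcript share results, 55 of 62 values under another setting stayed within 1.5 times of the reported one or on the same side of the threshold, as did 117 of 130 with a library left out. The 2 enzyme calls in stromal libraries became 1 without the filter, 6 after median-of-ratios scaling and 4 after quantile normalization. With Sca-1+ luminal replicate 3 as the only library of its group, enzyme calls were 4 between the luminal groups, 5 (basal) and 9 (stromal), and partner calls 4 between the luminal groups. With a library left out, enzyme calls ran from 4 to 9 between the luminal groups (4 when Sca-1+ replicate 2 or Sca-1- replicate 3 was left out), from 3 to 5 in basal (5 without Sca-1+ luminal replicate 3) and from 0 to 8 in stromal libraries (0 without either stromal library, 1 without basal replicate 2 or Sca-1- luminal replicate 1, and, of the Sca-1+ luminal group, 4 without replicate 3 and 8 without replicate 1). Partner calls ran from 8 to 9, 5 to 8 and 1 to 7, and Lgalsl was called 0 to 1 times, lost without either basal library. Adjusted p for transcript shares ran from 0.133 to 0.918 for Lgals3, 0.226 to 0.657 for Lgals8 and 0.179 to 0.452 for Lgals9. A group left with a single library takes its spread from the others. The causes were not tested. No paired analysis was possible because the labels carry no replicate numbers. With 2 or 3 libraries a group, small differences are not detectable.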
